A study of Arabidopsis thaliana with 2 samples.

Results

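The genes described here are 42 nuclear loci of Arabidopsis thaliana that encode the light-harvesting antenna proteins (LHCA and LHCB) and nuclear-encoded subunits of photosystem I (PSA) and photosystem II (PSB). They were listed by locus identifier, with no threshold on a measured value but with earlier results of these data known, and all 42 were found among 27444 nuclear protein-coding genes. Peaks of the tagged clock protein CCA1 were read from ChIP-seq, in which DNA cross-linked to a tagged protein is recovered and sequenced. No control library is stated in the sources used here, and whether a peak marks direct CCA1 binding was not tested. The plants were 14-day-old Col-0 whole seedlings of the genotype cca1 lhy that expressed CCA1-FLAG from the construct CCA1pro:CCA1-FLAG, so both native clock genes were mutant and the tagged protein was driven by the CCA1 promoter. They were kept in cycles of light and dark on medium with sucrose, received no treatment, and were fixed in the morning soon after lights came on. There is 1 library read on an Ion PGM (IonPGM below) and 1 read on an Illumina GAII (Illumina below), both from anti-FLAG immunoprecipitation. With 1 library per sequencer no value has a replicate error and no test of a difference was possible. The library kit and the sequencer differ together and cannot be told apart. Whether the transgenic line was a single insertion line, and whether both libraries came from the same plants, is not given in the sources used here.

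Light-harvesting proteins bind chlorophyll and pass excitation energy to the photosystem cores, where it drives electron transport across the thylakoid membrane. Their nuclear genes are among the most actively transcribed of a green leaf, are induced by light through phytochrome, and cycle with a maximum in the day. CCA1, a MYB-type transcription factor whose level is highest around dawn, was first isolated in Arabidopsis as a protein that binds the promoter of an LHCB1 gene, LHCB1.3.

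Most of these genes carried a CCA1-FLAG peak, and most of the peaks lay along the gene rather than beside it. Every peak that overlapped a gene extended by 1000 bp on both sides was counted. A peak is called gene-body when its midpoint lay more than 200 bp inside both gene ends, and gene-end otherwise. In the IonPGM list 32 of 42 genes had a peak (76.2%, exact Clopper-Pearson 95% interval 60.5 to 87.9%), against 12.1% of all nuclear protein-coding genes. In the Illumina list 25 of 42 had one (59.5%, interval 43.3 to 74.4%), against 12.7% of all genes. Intervals cover counting error only, and genes of a family are not independent. Together 34 genes had a peak of either list, against 17.7% of all genes, and 23 had peaks of both, against 7.09%. IonPGM peaks only were present at 9 genes, against 4.99% of all genes, and Illumina peaks only at 2, against 5.63%.

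The gene-body peaks stood further from the genome-wide share than the gene-end peaks did. Gene-body peaks of the IonPGM list were found in 27 of 42 genes (64.3%, interval 48.0 to 78.4%), against 3.0% of all genes. The Illumina list had them in 16 of 42 (38.1%, interval 23.6 to 54.4%), against 1.91% of all genes. All 16 of these genes also had an IonPGM gene-body peak, against 1.04% of all genes with one in each list. A further 11 had a gene-body peak in the IonPGM list and none in the Illumina list, against 1.96% of all genes, and 0 of 42 had the reverse, against 0.864%. Gene-end peaks were found in 13 of 42 genes in each list (31.0%, interval 17.6 to 47.1%), against 9.51% of all genes for IonPGM and 11.1% for Illumina. With only the peaks in the upper part of each list by score (percentile above 50), Illumina gene-end peaks remained at 3 of 42 genes (7.14%), close to the 5.56% of all genes. Under the same limit Illumina gene-body peaks also remained at only 3 of 42 genes (7.14%), against 0.696% of all genes. IonPGM gene-body peaks remained at 17 of 42 genes (40.5%, against 1.25%) and gene-end peaks at 6 (14.3%, against 4.82%).

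Limiting the comparison to genes within the length range of the 42 moved the IonPGM gene-body share of all genes from 3.0% to 3.33% and the Illumina share from 1.91% to 1.92%. The 42 genes are short, with a median of 1386 bp against 2078 bp over all genes. That range, from 720 to 3207 bp, holds 19074 genes, and lengths within it were not matched. Among genes with a peak in their window, gene-body peaks were present in 24.9% for IonPGM and 15.0% for Illumina over the whole genome, and in 84.4% and 64.0% of the 42, a comparison chosen after the values were seen.

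The place of highest coverage along the gene differed from that over all genes. Both ends of every gene were folded together, because the gene table used here gives no strand and the start cannot be told from the end. Over all genes, coverage was highest 100 bp outside a gene end, where 1.69% of ends lay under an IonPGM peak and 2.25% under an Illumina peak. At the 84 ends of the 42 genes the same positions were covered in 10.7% and 5.95% of cases. Coverage of these genes was highest further in, at 46.2% of ends 450 bp inside the gene for IonPGM and at 25.0% of ends 300 to 400 bp inside for Illumina. Ends of the shortest genes drop out there, which leaves 80 ends at 400 bp and 78 at 450 bp. With both ends folded, a peak over the middle of a gene can count from each end. At 400 bp inside, all genes stood at 0.91% and 0.52%.

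**Figure D1:**
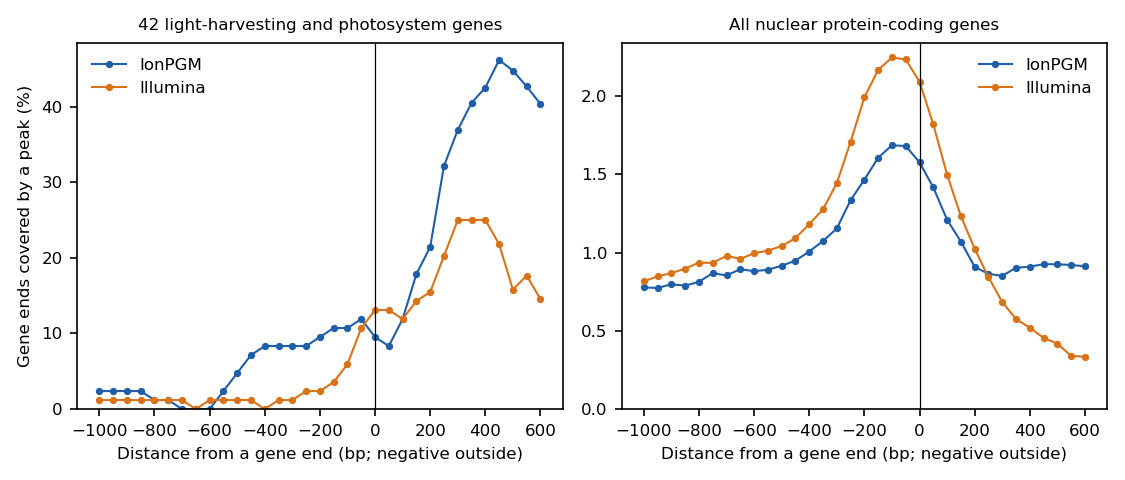
Percent of gene ends covered by a peak (y axis, different scales in the panels) against distance from the gene end in bp (x axis, negative outside the gene), both ends folded, for the 42 genes (left) and all nuclear protein-coding genes (right). The curves of the 42 genes are highest inside the gene, at 46.2% for IonPGM and 25.0% for Illumina, while those of all genes are highest 100 bp outside, at 1.69% and 2.25%.

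Peaks in the IonPGM list covered a large part of these genes. They covered 30.4% of the summed gene length of the 42, against 0.722% of that of all genes, and Illumina peaks covered 16.2% against 0.534%. More than 50% of the gene was covered in 14 of 42 genes by IonPGM and in 5 of 42 by Illumina, against 0.35% and 0.131% of all genes. The 30 distinct IonPGM gene-body peaks had a median width of 570 bp, from 196 to 1529 bp, against 290.5 bp over all 888 gene-body peaks of that list. The 19 Illumina gene-body peaks had a median of 294 bp, from 220 to 992 bp, against 274.5 bp over all 534. These genes, 42 of 27444, held 3.38% of all IonPGM and 3.56% of all Illumina gene-body peaks.

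**Figure D2:**
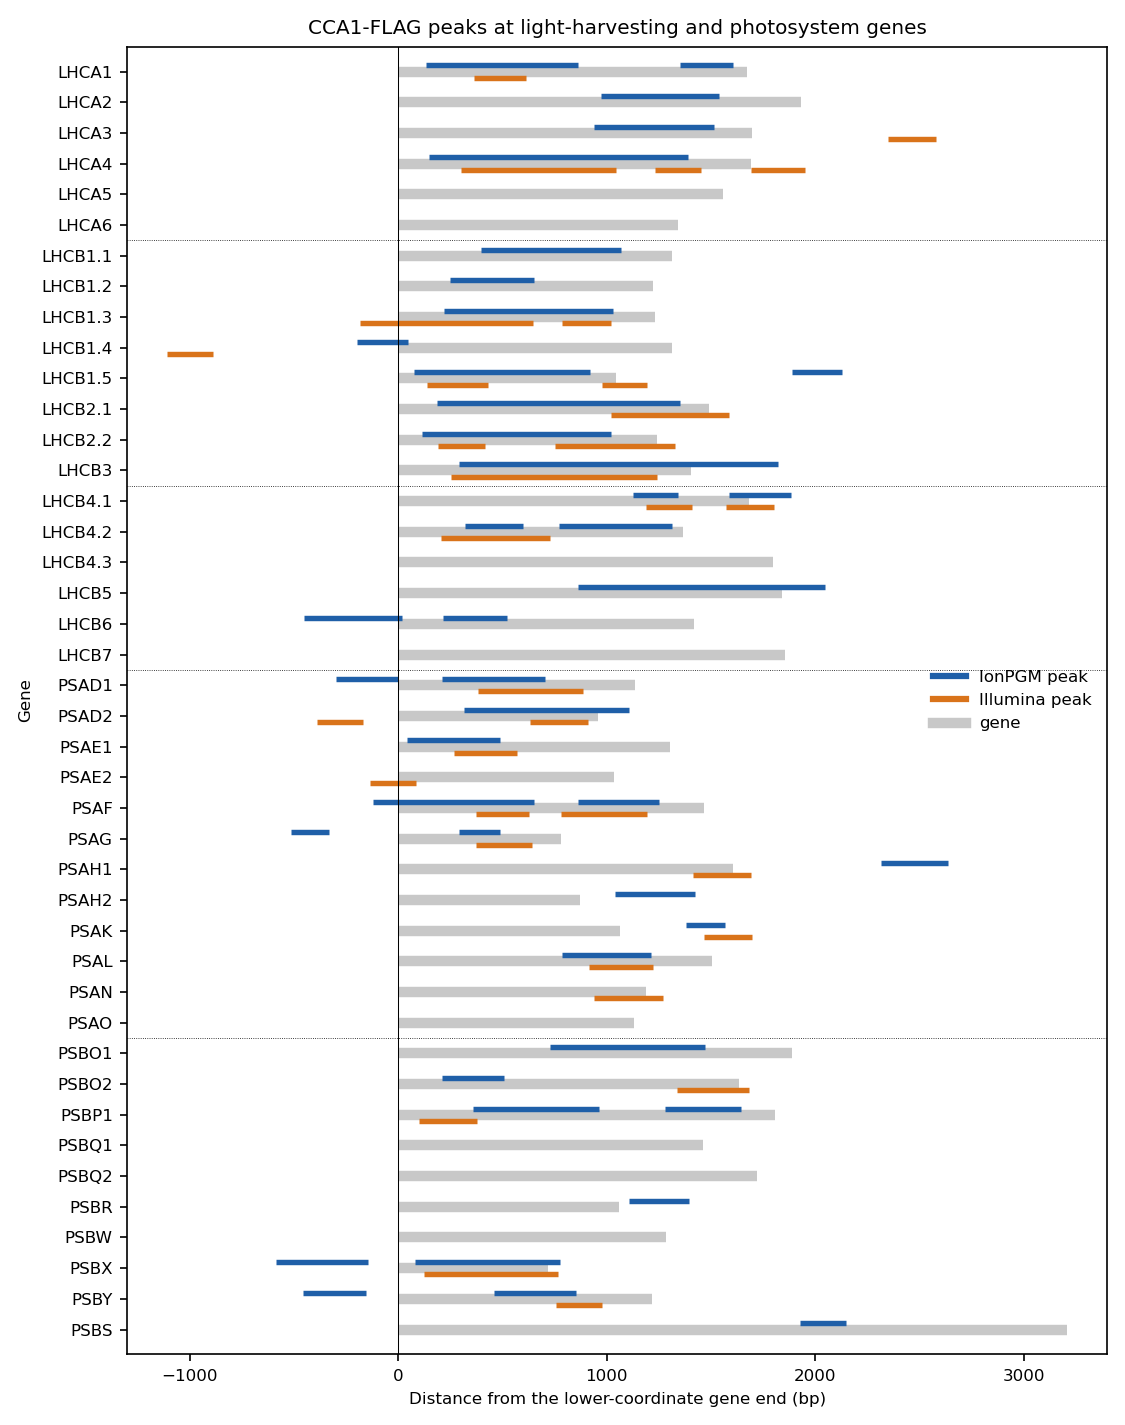
Position of each IonPGM peak (blue) and Illumina peak (orange) along each of the 42 genes (grey), as distance in bp from the gene end with the lower coordinate; dotted lines separate LHCA, LHCII trimer (LHCB1 to LHCB3), other LHCB, PSA and PSB genes. Most peaks lie over the gene, and 8 genes have none.

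The genes of the major antenna complex LHCII held the highest-ranked IonPGM peaks of the 42 genes. LHCB1, LHCB2 and LHCB3 proteins form the trimers of LHCII, the main light collector of photosystem II. The score that the authors' peak caller gave each peak has no stated scale, so it is used as a percentile within its own list, where 100 is the highest score. All 8 genes had an IonPGM peak (12.1% of all genes), 7 of 8 an IonPGM gene-body peak (3.0%), and 6 of 8 an Illumina peak (12.7%). An IonPGM peak above percentile 90 was present at 5 of the 42 genes, against 1.14% of all genes, and all 5 belong to this group. No Illumina peak at the 42 genes was above percentile 90, against 1.28% of all genes with such a peak.

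LHCB1.5 (AT2G34420) had the highest IonPGM percentile of the 42 genes, 97.3, for a peak of 845 bp at chromosome 2: 14522598 to 14523442 that covered 80.9% of the gene. The Illumina peak inside the same gene, at 14522662 to 14522955, stood at percentile 11.6. A long noncoding RNA gene, AT2G08665, overlaps both. Its neighbour LHCB1.4 (AT2G34430) had no gene-body peak in either list. An IonPGM peak of percentile 57.8 lay across its lower-coordinate end at chromosome 2: 14524411 to 14524653, and the window of LHCB1.5 takes in this peak too. The only Illumina peak in the window of LHCB1.4, of percentile 6.26, lay 889 bp outside that gene. This Illumina peak lay across the higher-coordinate end of LHCB1.5 and counts at both genes.

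LHCB2.1 (AT2G05100) had the shared pair with the highest mean percentile of the 42 genes, 92.7. Its IonPGM peak of 1166 bp at chromosome 2: 1823174 to 1824339 had percentile 96.7 and covered 78.2% of the gene. The Illumina peak at 1824012 to 1824577 had percentile 88.8, lay across the higher-coordinate end, and shared 328 bp with the IonPGM peak. LHCB2.2 (AT2G05070) showed the same IonPGM pattern, with a peak of 906 bp at chromosome 2: 1799349 to 1800254 and percentile 93.4. In the Illumina list this stretch was split into a peak inside the gene (percentile 26.6) and a peak across the higher-coordinate end (percentile 34.2).

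At LHCB1.3 (AT1G29930), the LHCB1 gene whose promoter CCA1 was first shown to bind, both lists had a peak over the gene. The IonPGM peak, at chromosome 1: 10478103 to 10478913, had percentile 92.5 and lay wholly inside. The Illumina peak at 10477699 to 10478528 had percentile 76.2 and reached 186 bp beyond the lower-coordinate end, and a second one inside the gene stood at percentile 0.474. Of the adjoining copies, LHCB1.1 (AT1G29920) had an IonPGM peak inside at percentile 86.1 and LHCB1.2 (AT1G29910) one at percentile 28.5, and neither had an Illumina peak within 1000 bp. LHCB3 (AT5G54270) carried the widest peak of each list at these genes, 1529 bp (IonPGM, percentile 92.0) and 992 bp (Illumina, percentile 30.6), with 951 bp in common. The IonPGM peak lay at chromosome 5: 22038457 to 22039985, ran 417 bp past the higher-coordinate end, and also overlaps the neighbouring myosin gene ATM2. The Illumina peak, which lay wholly inside LHCB3, overlaps ATM2 too.

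LHCB1 and LHCB2 copies are close in sequence, and how the authors placed reads that match several copies is not given in the sources used here, so the split of signal between copies is uncertain. The same may hold for the LHCB4 genes and for the PSAD, PSAE, PSAH, PSBO and PSBQ pairs. Among the 22 genes outside these families (all 3 LHCB4 genes left out), 14 (63.6%) had an IonPGM and 9 (40.9%) an Illumina gene-body peak, against 3.0% and 1.91% of all genes, a subset chosen after the values were seen.

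The remaining LHCB proteins are single antenna proteins near the photosystem II core, and 4 of 6 of their genes had IonPGM and 2 of 6 Illumina gene-body peaks, against 3.0% and 1.91% of all genes. At LHCB4.1 (AT5G01530), which like LHCB4.2 encodes CP29, both lists placed a gene-end peak in the same position. The pair shared 216 bp across the higher-coordinate end at chromosome 5: 210453 to 210668, with percentiles of 71.0 (IonPGM) and 40.3 (Illumina), and a weaker pair inside the gene had percentiles of 4.02 and 8.94. LHCB4.2 (AT3G08940) had 2 IonPGM peaks inside, at percentiles 22.3 and 85.5. The Illumina peak there, at percentile 16.7, overlapped the weaker of them. LHCB5 (AT4G10340), encoding CP26, had an IonPGM peak of 1187 bp at percentile 56.5, and LHCB6 (AT1G15820), encoding CP24, had IonPGM peaks inside and across the lower-coordinate end at percentiles 21.5 and 55.8. Neither had an Illumina peak.

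Of the 6 LHCA genes, 4 (66.7%) had an IonPGM and 2 (33.3%) an Illumina gene-body peak, against 3.0% and 1.91% of all genes. LHCA1 to LHCA4 form the antenna belt of photosystem I, and their genes are the 4 with an IonPGM gene-body peak. The IonPGM peak in LHCA4 (AT3G47470) spanned 1240 bp (chromosome 3: 17493491 to 17494730) and stood at percentile 78.6. The Illumina list had 2 peaks in the same stretch, at percentiles 47.6 and 11.8. LHCA1 (AT3G54890) had an IonPGM gene-body peak of 728 bp at percentile 60.8, and the overlapping Illumina peak had percentile 0.102, the lowest at any of these genes. LHCA3 (AT1G61520) and LHCA2 (AT3G61470) had IonPGM gene-body peaks at percentiles 83.5 and 45.3. No Illumina peak overlapped either. LHCA5 and LHCA6, minor antenna proteins that link photosystem I to the NDH complex, had no peak of either list at their genes.

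Among photosystem I subunits, 6 of 12 genes had an IonPGM and 5 of 12 an Illumina gene-body peak, against 3.0% and 1.91% of all genes. PSAF (AT1G31330), whose product helps dock plastocyanin, held the highest Illumina percentile of the 42 genes. That Illumina peak at chromosome 1: 11215455 to 11215866 had percentile 89.3 and the IonPGM peak over it, at 11215540 to 11215925, had percentile 63.6. A second pair of peaks in this gene had percentiles of 58.9 (IonPGM) and 15.7 (Illumina), and its IonPGM peak also overlaps LBD4. PSAD1 (AT4G02770), for a subunit at the ferredoxin docking site, had overlapping gene-body peaks at percentiles 78.7 (IonPGM) and 46.7 (Illumina), and PSAL (AT4G12800), for a subunit at the LHCII docking site, at 68.5 and 39.8.

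Lower-ranked peaks were shared at PSAE1, PSAG, PSAD2 and PSAK. PSAE1 (AT4G28750) stood at percentiles 17.7 (IonPGM) and 22.5 (Illumina), and PSAG (AT1G55670), which AT1G55673 overlaps, at 22.0 and 36.5. At PSAD2 (AT1G03130) the shared peaks had percentiles of 46.8 and 0.575, and the IonPGM peak also overlaps AT1G03140. At PSAK (AT1G30380) they lay outside the gene, over the pseudogene AT1G30390, at 1.17 and 11.4. PSAH1 (AT3G16140) had an IonPGM peak 709 bp outside the gene (percentile 82.7) and an Illumina peak across its higher-coordinate end (percentile 3.28). PSAH2 (AT1G52230) had only an IonPGM peak outside the gene, at percentile 10.7. PSAN (AT5G64040) and PSAE2 (AT2G20260) had only an Illumina peak, across a gene end, at percentiles 57.0 and 1.59.

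Among photosystem II subunits, 6 of 10 genes had an IonPGM and 3 of 10 an Illumina gene-body peak, against 3.0% and 1.91% of all genes. PSBX (AT2G06520), a small membrane subunit, was the most fully covered of the 42 genes, at 89.2% by IonPGM and 83.2% by Illumina. Its peaks, at chromosome 2: 2587807 to 2588504 (IonPGM) and 2587850 to 2588495 (Illumina), had percentiles of 65.0 and 84.1 and 646 bp in common. PSBY (AT1G67740), another small membrane subunit, had a gene-body peak at percentile 85.2 in the IonPGM list and one at 4.23 in the Illumina list. PSBP and PSBO are extrinsic proteins of the oxygen-evolving complex. PSBP1 (AT1G06680) had 2 IonPGM peaks inside, at percentiles 52.0 and 59.2, and an Illumina peak at 46.0 that shared only 19 bp with the first. PSBO1 (AT5G66570) had only an IonPGM peak, at percentile 9.03. PSBO2 (AT3G50820) had an IonPGM gene-body peak at 3.34 and, not overlapping it, an Illumina gene-end peak across the higher-coordinate end at 54.4. PSBS (AT1G44575), needed for the heat dissipation of excess light, had only an IonPGM peak, at percentile 11.8, and PSBR (AT1G79040) only an IonPGM peak outside the gene, at 41.4.

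The 8 genes without a peak of either list were LHCA5 (AT1G45474), LHCA6 (AT1G19150), LHCB4.3 (AT2G40100), LHCB7 (AT1G76570), PSAO (AT1G08380), PSBQ1 (AT4G21280), PSBQ2 (AT4G05180) and PSBW (AT2G30570). Depth is unknown, so a missing peak means only that none was in the list.

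Peaks found by both sequencers were common at these genes but differed in rank. A shared peak, meaning an IonPGM and an Illumina peak that overlap by at least 1 bp and both lie in the window, was present at 19 of 42 genes (45.2%, interval 29.8 to 61.3%), against 6.56% of all genes. At 4 genes, LHCA3, LHCB1.4, PSAH1 and PSBO2, both lists had a peak but none overlapped. They are 17.4% of the 23 genes with peaks of both lists, against 7.45% of all genes with both. All 19 Illumina gene-body peaks overlapped an IonPGM peak, against 53.9% of all Illumina gene-body peaks. In the other direction 19 of 30 IonPGM gene-body peaks (63.3%) were shared, against 34.5% of all.

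Of the 24 overlapping pairs at these genes, 21 had their common stretch wholly inside the gene, 2 across a gene end and 1 outside. The same split was not counted over all nuclear pairs. The IonPGM percentile was the higher in 18 of 24 pairs (75.0%), against 46.6% of all 1499 nuclear pairs. Median percentiles were 69.7 (IonPGM) and 28.6 (Illumina) at these genes and 63.4 and 65.2 over all nuclear pairs. Pairs are not independent. The IonPGM peaks of LHCA4, LHCB1.3 and LHCB2.2 each overlapped 2 Illumina peaks and enter these counts and medians in 2 pairs. In each of those pairs the IonPGM percentile was the higher. Taking the highest peak of each gene, the median was 62.2 over the 32 genes with an IonPGM peak and 36.5 over the 25 with an Illumina peak, against 49.6 and 49.0 over all genes with one. The IonPGM percentile of the highest peak was the higher at 17 of the 23 genes with both (73.9%), against 46.2% of all 1946 genes with both. The 6 genes where the Illumina percentile was the higher were PSAE1, PSAF, PSAG, PSAK, PSBO2 and PSBX, none of them a light-harvesting gene. Percentiles of lists made separately show rank within each list and not the amount of signal.

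**Figure D3:**
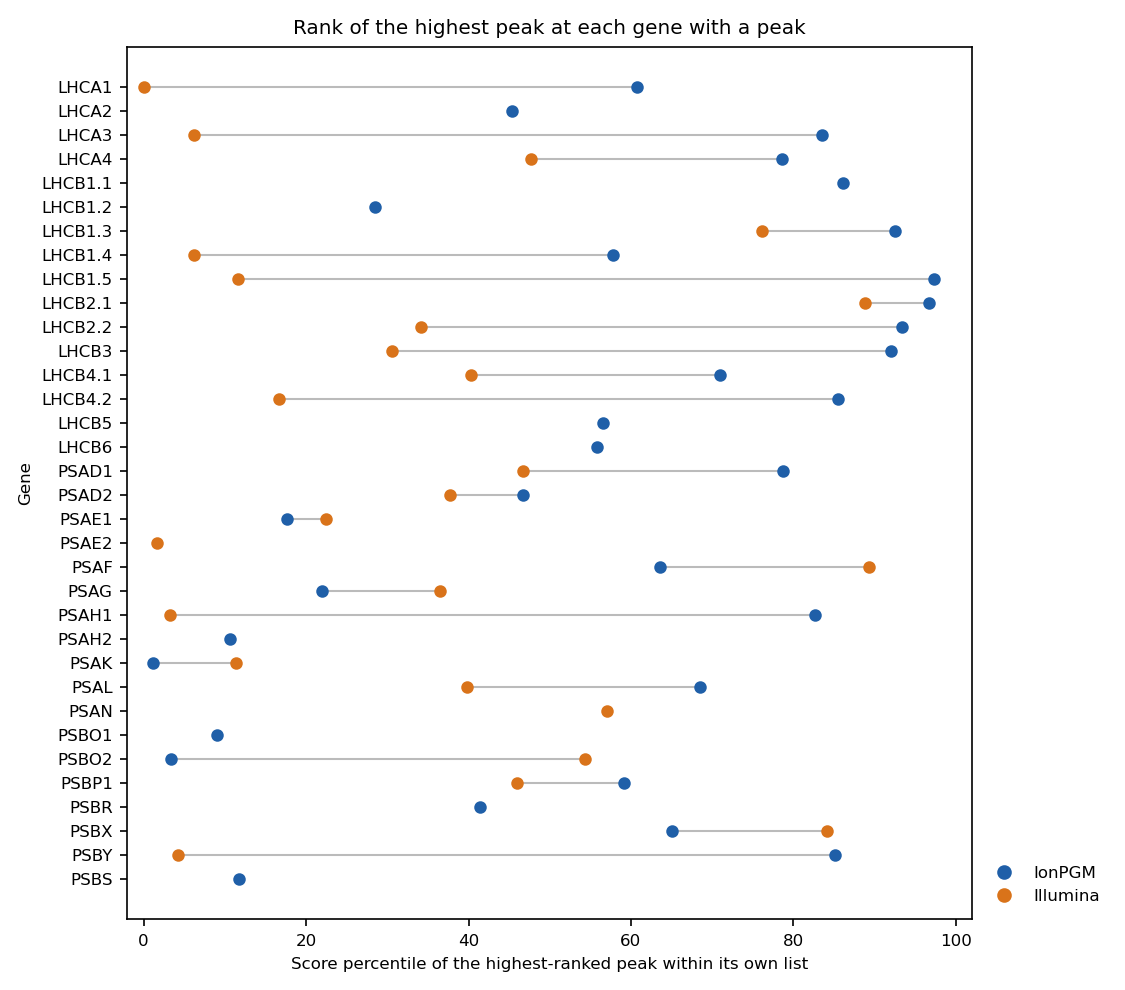
Score percentile of the highest-ranked peak at each of the 34 genes with a peak (x axis, rank within its own list) for IonPGM (blue) and Illumina (orange); a grey line joins the lists where both have one. IonPGM is the higher in 17 of the 23 genes with both (73.9%), against 46.2% of all 1946 genes with both. Every light-harvesting gene with both is among the 17.

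Most IonPGM peaks outside these genes touched a neighbouring gene. Of the 12 distinct IonPGM gene-end peaks, 1 lay within the gene, 3 across an end and 8 outside, and 7 of those 8 touched another annotated gene. How often peaks outside other genes do so was not counted. Among those 7 were the IonPGM peaks near PSBY (percentile 77.5, over KCR1), PSBX (43.5, over RPA1A) and PSBR (over RECA1). Of the 13 Illumina gene-end peaks, 9 lay across an end, 1 within the gene and 3 outside, and 2 of those 3 touched another annotated gene. The Illumina gene-end peaks not described above were 1 across the higher-coordinate end of LHCA4 (percentile 38.8), 1 outside PSAD2 over RAB28 (37.7) and 1 outside LHCA3 (6.16). The IonPGM ones were 1 within LHCA1 (13.2), 1 outside PSAD1 (18.2) and 1 outside PSAG (16.1). The split by position turns on small distances in some cases. The Illumina peaks of LHCB2.1 and LHCB2.2 that counted as gene-end had midpoints 185.5 and 197 bp inside, and the Illumina peak of LHCB1.3 that counted as gene-body had its midpoint 228.5 bp inside.

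Other photosynthesis genes also carried gene-body peaks. Of 18 other photosystem, light-harvesting-like and assembly genes, 3 (16.7%) had an IonPGM and 4 (22.2%) an Illumina gene-body peak, against 3.0% and 1.91% of all genes, and 5 had a shared peak, against 6.56%. Of 13 genes of electron transport, ATP synthase and their regulation, 4 (30.8%) had a gene-body peak in the IonPGM list and 4 in the Illumina list, and 5 had a shared peak, against the same shares of all genes. These shares were not tested against those of the 42.

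In the first list the shared pair of highest rank was the highest-scoring peak of both lists, which lies outside PSI-P (AT2G46820) and over CCA1 itself, whose promoter the transgene also carries. ELIP1 (AT3G22840), for a stress-induced relative of the antenna proteins, had a shared pair outside the gene at chromosome 3: 8086051 to 8086532 (IonPGM), with percentiles of 87.5 and 82.3. LHCB2.3 (AT3G27690), a further LHCII gene, had gene-body peaks at 93.7 (IonPGM) and 47.5 (Illumina), and LIL3:2 (AT5G47110) had a pair outside the gene at 39.2 and 55.9.

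In the second list the leading shared pairs were gene-body peaks over carriers of electrons. FD1 (AT1G10960), a ferredoxin gene, had percentiles of 94.5 (IonPGM) and 52.3 (Illumina). The ferredoxin gene FED A (AT1G60950) had 79.2 and 37.3, and the plastocyanin gene DRT112 (AT1G20340) 94.2 and 13.4. ATPC1 (AT4G04640), for the gamma subunit of ATP synthase, had its shared pair outside the gene, at 54.0 and 30.3. Of GLK1 and GLK2, the activators of many antenna genes, GLK1 (AT2G20570, GPRI1 in the gene table) had a shared pair outside the gene at percentiles 53.0 and 23.9, and GLK2 (AT5G44190) had no peak.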

How the data were processed

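For each sequencer the authors deposited a list of peaks in which every interval has a score. Peaks were called per sample; MACS2, Bowtie 0.12.7 and SAMtools 0.1.18 were used with TAIR10, per the submitters' processing notes. The threshold, any control library, the scale of the deposited score, and the read depth were not stated in the sources used here, so the score only ranked the 2901 IonPGM and 2954 Illumina peaks within their list. Files were read as 0-based intervals, and positions are printed 1-based. Gene ends came from NCBI RefSeq genes on TAIR10.1, which keeps the nuclear sequences of TAIR10. Its gene models can differ from those of TAIR10, and it gives no strand, exons or sequence, so promoter sequences and motifs were not used here. Every one of the 42 genes with a peak is named; of the other lists, up to 4 genes with a shared pair, by mean percentile. The members and lists were chosen with earlier results of these data known. The counting code was tested on simulated data. Alternatives changed windows, margins, score limits, overlap rules and backgrounds. Python 3.11.15, NumPy 2.4.6, pandas 2.3.3, SciPy 1.17.1 and Matplotlib 3.10.9 were used.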

Additional observations from a re-analysis of the deposited data

How the results depend on the processing

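Of 42 alternative values computed, 29 stayed near the reported one, meaning within 1.5 times for counts, within the spread over genes for medians and within the 95% interval for shares. Keeping only peaks above percentile 50 lowered the counts of genes with any peak to 21 of 42 (IonPGM, against 5.98% of all genes) and 6 (Illumina, 14.3% against 6.22%), and with a gene-body peak to 17 (40.5% against 1.25%) and 3 (7.14% against 0.696%). Gene-end counts fell to 6 (14.3% against 4.82%) and 3 (7.14% against 5.56%, near the share of all genes), and shared peaks to 4 (9.52% against 3.21%). Requiring midpoints within 200 bp of each other left 12 genes with a shared peak (28.6% against 6.32%). Fewer peaks enter under the percentile limit by construction, while the midpoint rule drops no peak and limits which pairs count. The midpoint rule took genes with a shared peak from 19 to 12 of 42, but from 6.56% to 6.32% of all genes. The percentile limit took genes with any Illumina peak from 25 to 6 of 42, against 12.7% to 6.22% of all genes. Genes with any IonPGM peak went from 32 to 21 of 42, against 12.1% to 5.98%. Windows of 500 or 2000 bp and margins of 100 or 300 bp moved no count by over 1.5 times. The share of all genes with an IonPGM gene-body peak was 3.33% in the length range of the 42 and 24.9% among genes with a peak (15.0% for Illumina), where the 42 stood at 84.4% and 64.0%. The planned motif counts were not run, because no sequence was used here. No paired analysis was possible because each sequencer has 1 library and no test was made. Unknown depth limits every missing peak.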
